A study of Enallax costatus with 10 samples.

Results

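The comparison described here is Late desiccation against Early desiccation in drops of the desert green alga Enallax costatus, strain CCAP 276-31. Its members are the assembly genes with 10 or more counts in at least 2 of the 4 libraries compared, which left 13558 of 32478 genes. Late desiccation drops had lost 60% of their volume and were collected 7.5 h into drying, and Early desiccation drops had lost 25% and were collected at 2.5 h. Both came from 6-week-old cultures dried as 40 µL drops on cover glasses, with 2 libraries per stage. Hydrated drops (0 h), Dry drops (about 24 h, kept 11 h after they had flattened) and Rehydrated drops (1 h after rewetting) had 2 libraries each as well; they entered the same fit and are given for their levels. The libraries are bulk RNA, in which fewer cells of a kind and less RNA per cell cannot be told apart.

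Algae of dry habitats pass through a stretch of rising solute concentration before they are dry, while the cells still hold water and can still make RNA. In plants and green algae, genes known to respond to water loss include those for late embryogenesis abundant proteins and chaperones, which protect proteins and membranes, for enzymes that remove reactive oxygen, and for photosynthesis. The deposited tables identify genes by assembly identifier alone and do not pair them with names, so none of these pathways could be looked up. The results describe genes by level, size, component and course, and name 4 identifiers.

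Of the members, 10430 had 10 or more counts in all 4 libraries. Another 170 passed through both Late libraries with neither Early library at the minimum, and 588 through both Early libraries alone, so the choice of members already leans these genes to one stage. They are part of the counts below, which describe the members, and their number is given where they make up much of a count. Just inside the minimum, 343 genes had a second-highest count of exactly 10, with median counts of 7.5 in Late and 10 in Early desiccation. Just outside, 373 genes had a second-highest count of 9, with medians of 7 and 8. The members held 98.5% and 96.7% of the counts in the Late libraries, against 99.1% in both Early libraries. Total counts were 2643960 and 2829840 in Late desiccation, against 3448980 and 3867190 in Early desiccation (replicates 1 and 2), and between 1974790 and 3713460 in the other stages.

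The libraries of a stage were not equally alike. Across the members, Pearson's r of log2(CPM + 2) was 0.89 between the Late libraries and 0.95 between the Early libraries (CPM, counts scaled to a fixed library total after TMM, which sets libraries on a common scale from the bulk of their genes; the points share libraries and depth). Late replicate 2 was closer to Early replicate 1 (0.90) than to Late replicate 1. Late replicate 2 also belongs, with Hydrated replicate 2 and both Rehydrated libraries, to a set of 4 libraries that share 147 genes at 3 or more counts with none in the other 6 libraries. None of these 147 genes was a member. The labels give no batch, and this split lies inside the Late stage. The 2-fold steps and the medians by level and length are therefore also given without Late replicate 2. Called genes are also given for the 6 libraries outside this set.

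The counts lay in fewer genes at 7.5 h than at 2.5 h of drying, within the limits of 2 libraries per stage. The 100 genes with most counts held 64.8% and 56.3% of all counts in the Late libraries, against 46.3% and 46.4% in the Early libraries. The means were 60.5% ± 6.04 in Late and 46.3% ± 0.06 in Early desiccation (SD, n = 2 each). The small SD of the Early libraries was particular to 100 genes, near which their curves cross. It was 4.08 for the single gene with most counts, 2.89 for 10 genes and 1.27 for 1000 genes. The groups did not overlap, although 2 libraries against 2 cannot give a p below 0.333 by the exact two-sided permutation test, and this is the value found. Most of the difference lay in a single Trinity component, a set of related assembled sequences, with 2 member genes. These took 35.2% and 26.7% of the counts in Late, against 15.8% and 4.66% in Early desiccation. Without them the difference in the share of the 100 genes was 3.02 percentage points, against 14.2 with them.

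**Figure D1:**
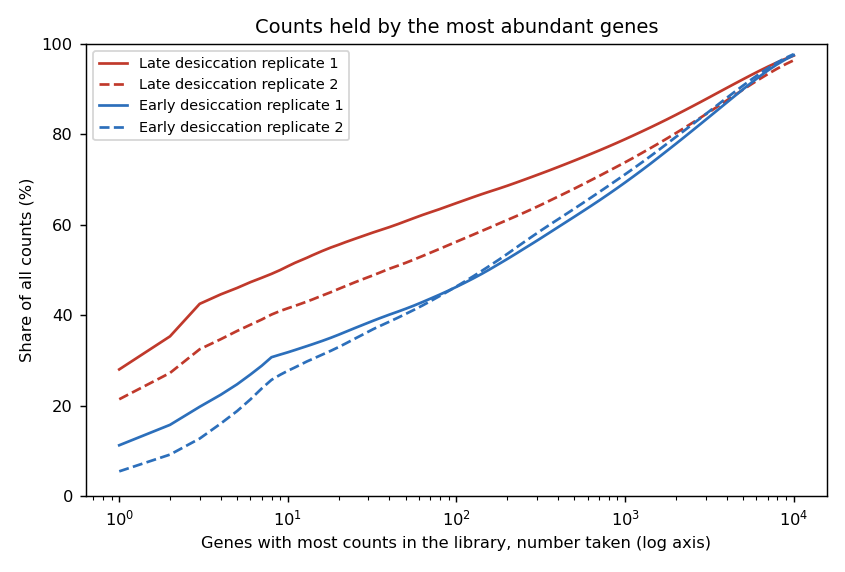
Share of all counts (y, percent) held by the genes with most counts in each library (x, number of genes taken, log axis) for the 2 Late and 2 Early desiccation libraries. Both Late curves start higher, at 28.02% and 21.4% for the single gene with most counts, against 11.2% and 5.48% in Early desiccation, and the difference between the stage means narrows to 6.12 percentage points at 1000 genes.

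The gene with most counts was TRINITY_DN224299_c10_g1, named as the gene with the largest share in Late desiccation among those with both Late libraries above both Early libraries. It took 28.02% and 21.4% of the counts in the Late libraries, against 11.2% and 2.75% in the Early libraries. On TMM-scaled CPM it stood at 254252 and 163668 in Late, against 66919 and 17706 in Early desiccation. The groups did not overlap, but the Early libraries were 3.78-fold apart. The mean was 4.94-fold higher in Late desiccation, with a log2 fold change of 2.30 (SE 0.88) that was not called (edgeR adjusted p = 0.623). The log2 fold change was 3.56 without Early replicate 1 and 1.64 without Early replicate 2. By share of counts Late desiccation was the highest stage. The gene took 3.75% and 8.39% in Hydrated, 1.24% and 0.915% in Dry and 7.32% and 12.0% in Rehydrated drops. On TMM-scaled CPM the gene stood at 99930 and 413266 in Rehydrated drops, below and above both Late libraries. Its effective length, the ratio of its count to its length-normalised value, was 0.025 of that of a typical gene measured in every library. This is a median over the libraries. The gene therefore weighs more in length-normalised values, which rest on this very short length. In the deposited length-normalised table it made up 68.5% and 67.9% of the sum in Late, against 56.6% and 33.4% in Early desiccation. Its partner in the component took 7.19% and 5.24% of the counts in Late, against 4.51% and 1.90% in Early desiccation (log2 fold change 1.43, SE 0.76, edgeR adjusted p = 0.743).

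Other genes with many counts lay apart in both directions, within wide errors. Of the 20 members with most counts in Late desiccation, 13 had both Late libraries above both Early libraries and 4 had them below, where 25.2% and 25.5% of all members did so. Of the 20 with most counts in Early desiccation, 6 were above and 10 below, with 13 genes on both lists. Each list leans to its own stage by its choice, so the split is a description. The 13 genes above had log2 fold changes between 0.53 and 2.95, and the lowest edgeR adjusted p among them was 0.595. Early replicate 1 was more than 2-fold above Early replicate 2 in 5 of the 20 genes of the Late list.

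The 10 genes below on the Early list together held 4.41% and 7.27% of the counts in Late, against 13.0% and 20.5% in Early desiccation. The groups lay apart for all 10 by the choice of the list. The gene with most counts among them, TRINITY_DN126975_c0_g2, is the named gene for this direction. It was at 12888 and 16953 CPM in Late, against 23766 and 35204 CPM in Early desiccation. The mean was 1.98-fold lower in Late desiccation (log2 fold change -0.98, SE 0.62, edgeR adjusted p = 0.794). This gene was not called. Along the course, Hydrated drops had 21677 ± 3724 CPM of this gene, those of Early desiccation 29485 ± 8088, those of Late desiccation 14921 ± 2875, Dry drops 88530 ± 22028 and Rehydrated drops 10866 ± 1827 (SD, n = 2 each). On this TMM scaling the level in Late desiccation was the lowest of the stages before rewetting, and the next stage, Dry, was the highest. The TMM factors were 0.67 and 0.56 in Dry, against 1.697 and 1.57 in Early libraries, and a lower factor raises CPM. As a share of counts the gene held 4.81% and 5.72% in Dry, against 3.995% and 5.48% in Early desiccation, which overlap. By share Late desiccation was also the lowest before rewetting, at 1.42% and 2.22%, against 3.91% and 3.16% in Hydrated drops. The height of Dry above Early desiccation thus depended on the scaling. The 10 genes had log2 fold changes between -1.64 and -0.71 in Late against Early desiccation, with the lowest edgeR adjusted p at 0.668.

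Across all members no gene was called in Late against Early desiccation. In the edgeR quasi-likelihood fit over all 10 libraries, 0% of 13558 genes had an adjusted p under 0.05, with 0.199 as the lowest value. At an unadjusted p under 0.05 there were 946 genes (6.98%), of which 645 (4.76%) were higher and 301 (2.22%) lower in Late desiccation. The median log2 fold change of all members was 0.02, with quartiles at -0.44 and 0.54, and the median SE was 0.63. A typical gene differed by 0.39 on the log2 scale between the stage means, by 0.39 between the Late libraries and by 0.30 between the Early libraries.

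The number called depended on the fit. The 4 libraries alone gave 9 called genes by edgeR (0.0664%; 7 higher, 0.0516%, and 2 lower, 0.0148%; 2414, or 17.8%, at an unadjusted p under 0.05), and all stages except Rehydrated gave 3 (0.0221%; 2 higher, 0.0148%, and 1 lower, 0.00738%; 2027, or 15%, at an unadjusted p under 0.05). Without Rehydrated replicate 1 or replicate 2, 3 genes were called in each case. Late replicate 1 against both Early libraries, in the fit of the 6 libraries outside the set of 4, gave 161 (1.19%; 2208, or 16.3%, at an unadjusted p under 0.05), with 120 higher (0.885%) and 41 lower (0.302%); the lone Late library is there assumed to vary like the other stages. With the library set as a term, edgeR called 0 (485 at an unadjusted p under 0.05), and limma on the second table plus 1 called 0 (928 at an unadjusted p under 0.05). DESeq2 called 40, of which 36 were higher and 4 lower, after its own filter left 2255 genes with an adjusted p. Before that filter, DESeq2 had 1092 genes at an unadjusted p under 0.05 (703 higher, 389 lower). Voom of limma with library weights called 174 of 13558, of which 167 were higher and 7 lower. At an unadjusted p under 0.05 voom had 2527 genes (1515 higher, 1012 lower).

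The 9 genes called from the 4 libraries alone were 7 higher and 2 lower in Late desiccation. All 3 genes called without the Rehydrated stage were among these 9, and 7 of the 161 were. Of the 40 called by DESeq2, 2 were. DESeq2 gave an adjusted p to 2255 genes only, and at least 1 of the 9 genes was not among them. Of the 7 higher genes, 5 had no count in either Early library and had become members through the Late libraries alone, and both lower genes had become members through the Early libraries alone, so these 7 calls fall on genes whose membership already leaned that way. A sixth, described after its values were seen, had counts of 4289 and 3701 in Late, against 562 and 332 in Early desiccation, and was the highest of the 9 in counts. It also had 9225 and 22230 counts in Rehydrated drops, against 214 and 227 in Dry drops. Its log2 fold change was 4.02 (SE 0.51, edgeR adjusted p = 0.0465 in the 4 libraries alone), and the same gene had an edgeR adjusted p of 0.585 in the fit of all libraries.

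The 2 genes named for the smallest p among members of 10 CPM or more and without overlap both had no count at the other stage. TRINITY_DN211705_c61_g16 had 179 and 403 counts in Late desiccation, 61.4 and 109 CPM, against no count in either Early library. Its level in Late desiccation was at least 335-fold higher, taken against 3 counts summed over the Early libraries (a limit that covers counting error alone). It had no count in Hydrated or Dry drops either, and 788 and 1710 counts in Rehydrated drops. The gene is a member through its Late counts alone, so its p-values describe its rank and support no difference of their own. They were the lowest of all members in the fit of all libraries (edgeR unadjusted p = 1.47e-05, adjusted p = 0.199), with an edgeR adjusted p of 0.00677 in the 4 libraries alone, and of 0.0038 and 0.00294 without Rehydrated replicate 1 and replicate 2.

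On the lower side, TRINITY_DN188975_c1_g2 had no count in either Late library, against 79 and 74 counts in the Early libraries (13.6 and 12.3 CPM). Its level in Late desiccation was at least 28.6-fold lower, taken against 3 counts summed over the Late libraries. The absence was confined to that stage in these libraries apart from Rehydrated replicate 2, which also had none; the gene had 46 and 18 counts in Hydrated, 123 and 225 in Dry and 24 in Rehydrated replicate 1. This gene is a member through its Early counts alone, and its p-values are likewise a description, with an edgeR adjusted p of 0.402 in the fit of all libraries, 0.0465 in the 4 libraries alone, and 0.0133 and 0.0132 without Rehydrated replicate 1 and replicate 2. A second member of its component overlapped between the stages, at 51.5 and 27.5 CPM in Late, against 21.7 and 39.4 CPM in Early desiccation.

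**Figure D2:**
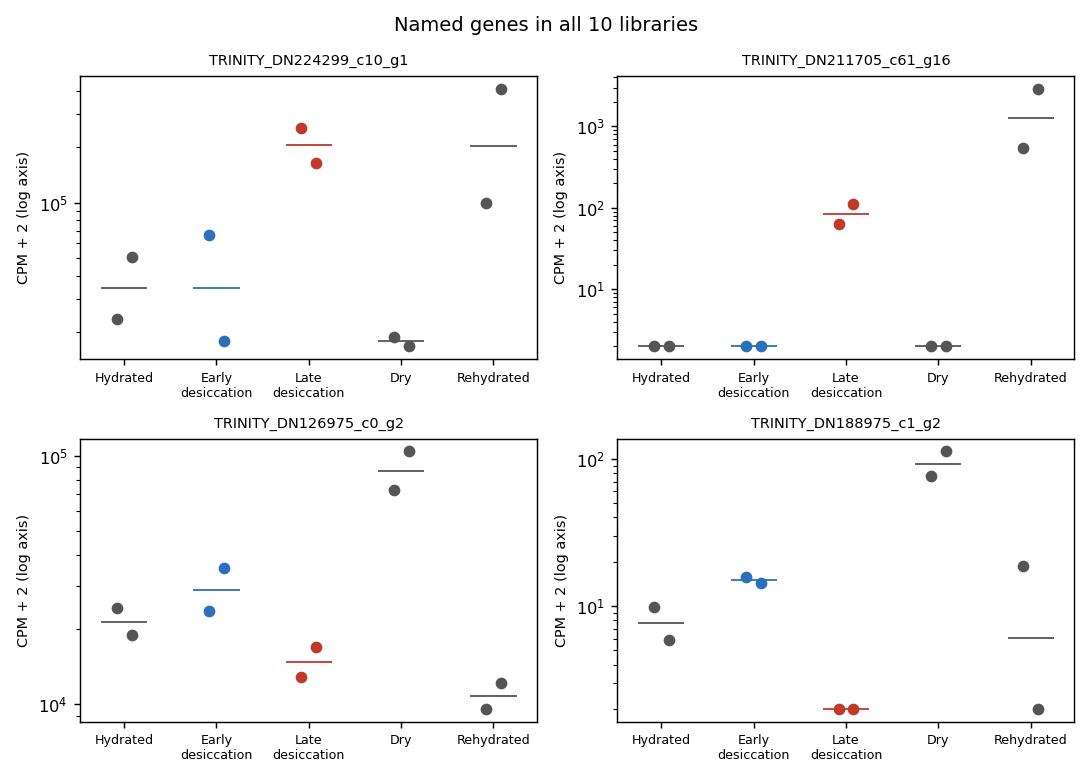
CPM + 2 (y, log axis) of the 4 named genes in the 2 libraries of each of 5 stages, in the order of the course; points are libraries and bars are geometric means. The upper genes lie higher in Late (red) than in Early desiccation (blue), and the lower genes lie lower, with the Early libraries of TRINITY_DN224299_c10_g1 far apart at 66919 and 17706 CPM.

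The 10 genes of smallest p on each side, chosen from 1957 eligible genes above and 2489 below, were of moderate level. Those higher in Late desiccation ranged from 4.59 to 109 CPM in the Late libraries (median 26.4), against 0 to 18.8 CPM in the Early libraries (median 2.45). In Hydrated drops the same genes had a median of 10.8 CPM and in Dry drops 8.61 CPM. In Rehydrated drops it was 28.3 CPM, above the median of the Late libraries on this scaling. The TMM factors were 0.76 and 0.30 in Rehydrated, against 1.12 and 1.35 in Late libraries, and a lower factor raises CPM. Relative to total counts the order turned round, with the lower median in Rehydrated drops, so it depended on the scaling. Of these 10, 3 had no count in Early desiccation, and the other 7 had log2 fold changes between 2.01 and 3.73 (edgeR adjusted p between 0.402 and 0.585). Those lower in Late desiccation ranged from 0 to 12.1 CPM in the Late libraries (median 2.92), against 8.97 to 62.3 CPM in the Early libraries (median 16.5). Their medians were 10.8 CPM in Hydrated, 8.42 CPM in Dry and 5.16 CPM in Rehydrated drops. Of these 10, 3 had no count in Late desiccation, and the other 7 had log2 fold changes between -6.11 and -1.78. These lists were ranked on the same values, so the levels describe them and test nothing.

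Steps of 2-fold or more were more often upward than downward under TMM scaling, while both directions were about as frequent among all genes without overlap. Both Late libraries lay above both Early libraries in 3413 members (25.2%) and below them in 3462 (25.5%), and 6683 overlapped. With a gap of 2-fold or more on CPM + 2, the counts were 328 above (2.42%) and 83 below (0.612%). Of these, 78 of the 328 had passed the count minimum through the Late libraries alone and 33 of the 83 through the Early libraries alone, which leaves 250 above and 50 below. At 4-fold they were 13 above and 4 below. The split of 328 to 83 was 333 to 76 with the size factors of DESeq2 (RLE), 341 to 85 with upper-quartile scaling and 424 to 136 when libraries were scaled to the counts left without the 10 genes of largest share. Under total counts the direction of the split turned to 178 above and 446 below, as the median log2 fold change of all members moved to -0.38. With Late replicate 1 alone against both Early libraries there were 959 above and 679 below, and with Late replicate 2 alone 500 above and 296 below. Without Early replicate 1 there were 716 above and 443 below, and without Early replicate 2, 561 above and 161 below; each of these asks for fewer libraries to agree.

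**Figure D3:**
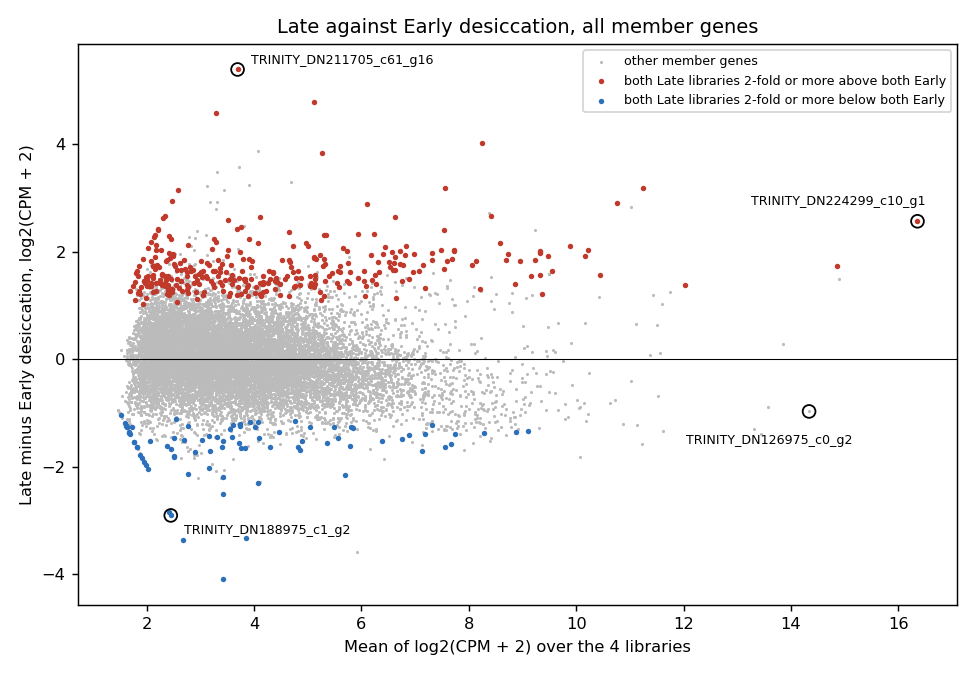
Difference between Late and Early desiccation in mean log2(CPM + 2) (y) against the mean over the 4 libraries (x) for all 13558 members. The 328 genes with both Late libraries 2-fold or more above both Early libraries are red, the 83 below are blue, and circles mark the 4 named genes.

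**Figure D4:**
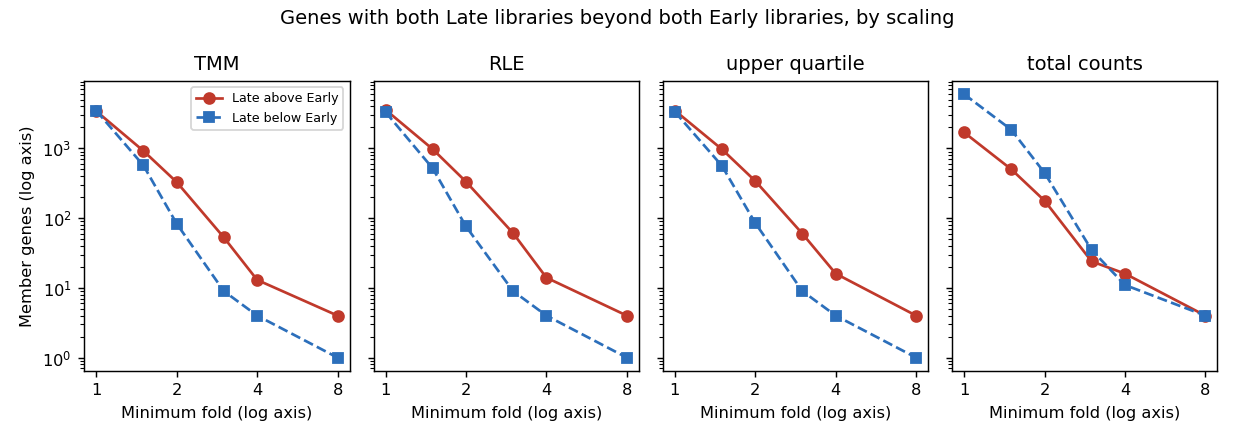
Number of members (y, log axis) with both Late libraries above (red) or below (blue) both Early libraries by at least a given fold on CPM + 2 (x, log axis), under 4 scalings. At a minimum fold of 2 the red counts exceed the blue under TMM (328 and 83), RLE and upper quartile, and the order is turned round under total counts (178 and 446).

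The 328 genes of a 2-fold step upward were at a median of 24.7 and 21.9 CPM in the Late libraries, against 6.38 and 5.73 CPM in the Early libraries, values that chose them. In the libraries that did not enter the choice, the medians were 8.26 and 15.2 CPM in Hydrated, 6.68 and 6.38 CPM in Dry and 14.5 and 17.0 CPM in Rehydrated drops. Hydrated replicate 2 and the Rehydrated libraries share the library set of Late replicate 2. On this TMM scaling they were higher than Hydrated replicate 1 and the Dry libraries. Before scaling, the median counts were 48 in Hydrated replicate 1, against 21 and 10 in Rehydrated drops, at unequal totals. The part of this library set in the result was not tested. The 328 genes took 43.5% and 34.6% of the counts in Late, against 16.8% and 7.80% in Early desiccation. They took 9.52% and 17.5% in Hydrated, 6.41% and 6.18% in Dry and 32.7% and 47.5% in Rehydrated drops. By this share the Rehydrated libraries overlapped with the Late libraries. Without TRINITY_DN224299_c10_g1 the remaining 327 took 15.4% and 13.1% in Late, against 5.57% and 5.05% in Early desiccation.

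The 83 genes of a 2-fold step downward were at a median of 3.77 and 4.32 CPM in the Late libraries, against 17.2 and 18.9 CPM in the Early libraries. Their medians were 13.4 and 12.9 CPM in Hydrated and 15.8 and 17.2 CPM in Dry drops. On this TMM-scaled CPM both neighbouring stages outside the choice were nearer to Early than to Late desiccation. Before scaling, the median counts were 26 and 35 in Dry drops, against 100 and 114 in Early and 11 and 16 in Late desiccation. The place of Dry drops by median thus depended on the scaling. Together the 83 genes held 0.902% and 0.852% of the counts in Dry drops. In Rehydrated drops the medians were 8.99 and 0 CPM. These genes held little of the RNA, with 0.217% and 0.288% of the counts in Late, against 0.952% and 0.9998% in Early desiccation. Of the 83, 21 had no count in either Late library, whereas 16 of the 328 had none in either Early library.

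**Figure D5:**
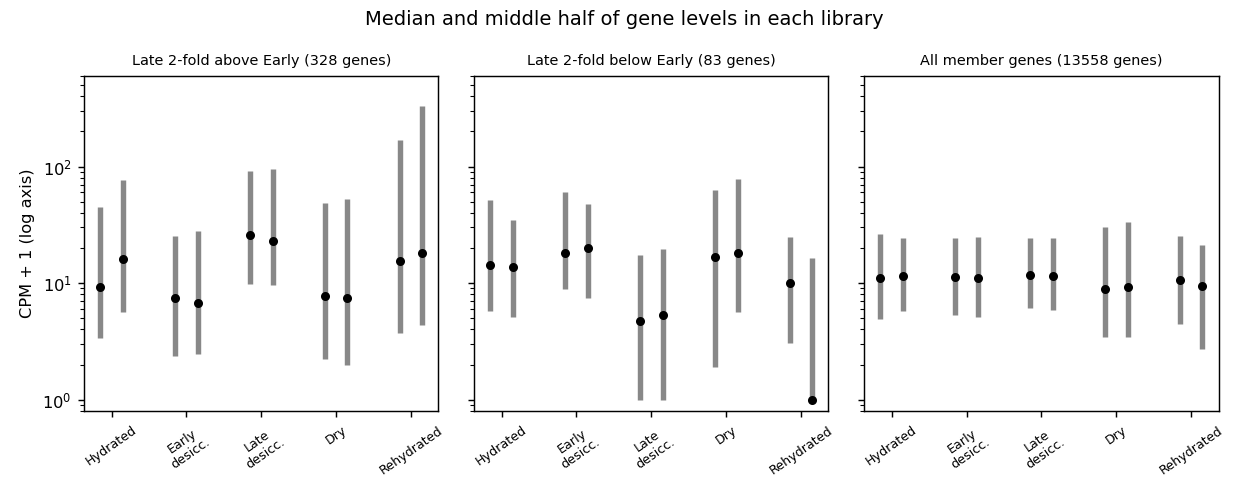
Median (points) and lower to upper quartile (bars) of CPM + 1 (y, log axis) in each of 10 libraries, by stage, for the 328 genes with a 2-fold step upward, the 83 with a 2-fold step downward and all 13558 members. The Late and Early libraries chose the first and second groups. All members had medians between 7.89 and 10.6 CPM in every library, a closeness largely set by the TMM scaling. Before scaling, at unequal totals, their median counts were 59 and 61 in Early, 31 and 39 in Late and 14 and 5 in Rehydrated libraries.

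Few genes were seen at one of these stages and missing at the other. In 16 members (0.118%) both Late libraries had 10 or more counts and neither Early library had any, and in 30 (0.221%) both Early libraries had 10 or more and neither Late library had any. The Early libraries were deeper, and with all 4 libraries thinned to the smallest total the counts were 17 and 17. Without Early replicate 1 or 2 the first count was 50 in each case, and without Late replicate 1 or 2 the other was 92 or 138, since 1 library alone then has to be at 0. The 16 genes had between 10 and 403 counts in the Late libraries, with a median of 26, and the 30 had between 10 and 181 in the Early libraries, with a median of 17. Of the 16, 2 had no count in either Hydrated library and 6 none in either Dry library. Of the 30, 2 had none in Hydrated, 10 none in Dry and 14 none in Rehydrated drops, and 1 had no count in any other stage.

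Direction varied with level. Members in the lowest quartile of mean level over all libraries had a median log2 fold change of 0.28, followed by 0.11, -0.06 and -0.17 in the higher quartiles. Without Late replicate 2 the medians were 0.18, 0.09, -0.07 and -0.20. Without Late replicate 1, Early replicate 1 or Early replicate 2 the third was -0.038, -0.032 or -0.018, and the order of the 4 quartiles was the same in each case. In the lowest quartile 28.6% lay above and 17.2% below, and in the highest quartile 20.3% lay above and 38.3% below. Under total counts every quartile was below 0, from -0.11 in the lowest to -0.57 in the highest, in the same order, and so was every length quartile. Steps of 2-fold or more upward were nevertheless most frequent in the highest quartile, with 117 above (3.45%) and 23 below (0.678%). These steps are taken on CPM + 2, which shrinks folds most at low levels. The lowest quartile had medians of 3.54 CPM in Late and 2.86 CPM in Early desiccation, and the highest 41.1 and 44.4 CPM. The part of the added 2 CPM in the differences between quartiles, of level or of length, was not tested. By effective length, genes of the longest quartile had 2.98% of members above by such a step and 0.442% below, and genes of the shortest quartile 2.51% above and 1.09% below. The median log2 fold changes of the length quartiles lay between -0.04 and 0.07, and without Late replicate 2 between -0.095 and 0.059. That of the shortest quartile was 0.058 with all libraries, and -0.023 without Late replicate 2 and -0.0079 without Late replicate 1, so its sign rests on having both.

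Related sequences did not always move together. Of 133 Trinity components with 3 or more members (530 genes), 12 had every member above and 4 every member below, and 31 had members on both sides. Only 3 had a 2-fold step in both directions. The component of TRINITY_DN211705_c61_g16 was one of them, with 10 members. Of these, 5 had both Late libraries above both Early libraries, all 5 by 2-fold or more, 3 had them below, and 2 overlapped. The member above with most counts was at 1244 and 1350 CPM in Late, against 260 and 388 CPM in Early desiccation. The member below with most counts was at 497 and 657 CPM in Late, against 1290 and 3170 CPM in Early desiccation. In Dry drops the member above was at 670 and 863 CPM, and the member below at 12331 and 16218 CPM. RSEM divides reads that match several sequences among them, so single values within a component are uncertain.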

How the data were processed

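RNA sequencing libraries from 5 stages, 2 per stage, were compared for Late against Early desiccation. Per the labels' protocols, ribosomal RNA was cleaved with a kit for Arabidopsis and 105 custom oligonucleotides. RSEM 1.2.28, Bowtie2 2.2, Trimmomatic 0.35, CASAVA 1.4 and DESeq2 are listed in the submitters' processing notes, without the role of each. The assembly identifiers are of the form that Trinity gives, and the version of neither Trinity nor DESeq2 is stated. The authors deposited expected counts per assembly gene, of which 11.4% of values were not whole, in a table of plant genes, so its totals may be part of each library. A second table that the authors deposited holds a score that behaves as length-normalised expression scaled by TMM, judged from the values. The replicate number and time code in each column name gave its sample.

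Expected counts were rounded, and members were genes with 10 or more counts in at least 2 of the 4 Late and Early libraries. TMM scaling, glmQLFit and glmQLFTest of edgeR 4.0.16 (R 4.3.3) were applied to all 10 libraries with stage as the factor, leaving 5 residual degrees of freedom. P-values were two-sided and adjusted by Benjamini-Hochberg over all members, and a gene is called under 0.05. SE is the absolute log2 fold change divided by the square root of F. Alternatives used DESeq2 1.42.0 and limma 3.58.1. The scripts were tested on simulated data. The members, rules and lists were chosen with earlier results of these data known. Named genes were, on each side of Early desiccation and without overlap, the gene with the largest share of counts and the gene with the smallest p at a mean of 10 CPM or more in the stage where it was higher. No label ties the libraries of a stage to separate cultures, so the spread behind each p-value may be technical. The chi-square per degree of freedom was 19.8 between the Late and 37.4 between the Early libraries, so neither pair was merged. Floors cover counting error alone.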

Additional observations from a re-analysis of the deposited data

How the results depend on the processing

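With 2 libraries per stage and total counts between 1974790 and 3867190, no gene was called in the fit of all libraries, and this count stayed at 0 under other scalings, a stricter filter, limma on the second table plus 1, the library set as a term and an adjusted p under 0.1. It became 9 in the 4 libraries alone, 3 without the Rehydrated stage, 40 by DESeq2, 174 by limma voom with library weights, 4 without a filter (edgeR) and 161 within the 6 libraries of 1 set; leaving out each of the 10 libraries gave 0 to 3. Same-numbered Late and Early libraries did not deviate together (r = -0.06 across genes). With 2 libraries per stage this cannot settle whether the numbers pair them. The replicate block gave 1 called gene in all libraries and 155 of 13558 in the 4 libraries alone. Stage alone leaves 2 residual degrees of freedom in the 4 libraries, and the block leaves fewer. The 328 genes above and 83 below became 178 and 446 under total counts, 189 and 55 with 50 or more counts, 531 and 170 or 172 and 35 with 0.5 or 5 CPM added, and 13 and 4 at 4-fold. Alternatives added after the data were seen gave 136 below for totals without the 10 genes of largest share. Leaving out each of the 4 libraries gave 500 to 959 above and 161 to 679 below. The difference in share of the 100 genes was 6.12 points for 1000 genes and 3.02 without the component of the gene with most counts (added), and 9.94 to 18.5 without each library. Genes missing in Early or in Late numbered 7 and 8 at 20 or more counts, 17 missing in Late after thinning, and 16 to 50 and 30 to 138 without each library. The median log2 fold change of all members was -0.38 under total counts, 0.032 under upper quartile and 0.041 under RLE, and -0.024 to 0.040 without each library. None of the 4 named genes changed direction under any of these alternatives. All 4 were chosen for having no overlap between the stages, so their direction was largely set by that choice and tests nothing. The causes of the differences in calls were not tested.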

Other observations

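The count minimum left out 18920 assembly genes. Among them, 37 had 100 or more counts in both libraries of another stage: 2 in Hydrated, 25 in Dry and 13 in Rehydrated drops, where a gene can be in more than one stage.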
